A study of Mus musculus with 4 samples.

Results

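Lubiprostone-treated Cftr-null mice (CF + lubiprostone) were compared with untreated wild type mice (WT control) to describe what of the CF state the small intestine still showed after treatment. The comparison covered 11800 genes of the 18194 with a probe set of their own on the array. A gene entered when a probe set that carried its symbol and no other had a signal at or above the median of its array in at least 1 of the 2 arrays compared. Gene expression had been measured on 4 Affymetrix Mouse 430 2.0 arrays, 1 for each pool of total RNA from the entire small intestine. The design text counts 10 mice in the WT control pool, 7 in the treated WT pool (WT + lubiprostone), 10 in that of untreated CF mice (CF control) and 8 in CF + lubiprostone. All mice were C57BL/6 by the labels (C57BL/6J in the methods) and took the liquid diet Peptamen. The CF mice carried the Cftr tm1Unc null allele in every tissue, and the WT mice were their littermates. Treated mice received lubiprostone at 10 µg/kg body weight by gavage each day for 2 weeks in Peptamen. The labels give the treatment of both control groups as none, and the age of the mice and a vehicle gavage of the controls are not given in the sources used here. Genotype and treatment differ together between CF + lubiprostone and WT control, so their shares in a difference cannot be told apart. With 1 pooled array in each group there is no error between mice, and nothing below is a test.

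CFTR is the anion channel through which the crypts and villi of the intestine secrete chloride and bicarbonate, and its loss in mice leaves the small intestine with sticky mucus, bacterial overgrowth and innate immune activation. Lubiprostone is a synthetic fatty acid related to prostaglandins, and the study calls its mechanism controversial. It has been reported to open the chloride channel CLC2, the product of Clcn2, and also CFTR, on which its chloride secretion may depend. It has also been held to act through prostaglandin receptors such as EP4, the product of Ptger4. The absorptive enterocytes of the small intestine carry digestive hydrolases and nutrient transporters on their brush border and a set of cytochromes P450 and conjugating enzymes that clear foreign compounds. They also answer bacterial contact and cytokines with secreted lectins, acute phase proteins and interferon-stimulated genes.

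The values are signals, linear brightness values on an arbitrary scale, each combining the probes that read 1 stretch of a transcript. The array medians lay between 109 and 124, and signals below them are called dim. Where 4 signals are listed for a gene, the order is untreated WT, treated WT, untreated CF and treated CF, and genes with several probe sets are given by their geometric mean. A fold is the ratio of CF + lubiprostone to WT control unless another pair is named. Where the lower signal was dim it was raised to its array's median, and the fold is written as "at least". The only error available is the SD of the log2 ratio between probe sets of a gene, whose median was 0.26 over the 5266 genes with more than 1 probe set.

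The array labels were first checked on the targeted gene. The signals of Cftr were 870, 595, 171 and 176, the mean of 2 probe sets. Both CF pools were thus below both WT pools, and CF + lubiprostone was lower than WT control by at least 2.98-fold (log2 ratio -2.31, SD 0.70 between probe sets). Clcn2 had signals of 1520.4, 1564, 1450.1 and 2040.4, a log2 ratio of 0.42. The receptor gene Ptger4 was at 1122 and 1106 in WT control and CF + lubiprostone. Enterocyte genes were bright in every pool, as the label of the tissue says. Fabp1, a fatty acid binding protein of enterocytes, had signals between 45262 and 54051. All 13 enterocyte genes kept lay within 2-fold, as did 92.2% of all genes.

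Most genes differed little between treated CF and untreated WT intestine. Within 2-fold lay 10882 genes, or 92.2%, and the median log2 ratio of all genes was -0.0044. CF + lubiprostone was higher at any size in 5846 genes (49.5%). Higher by 2-fold or more in CF + lubiprostone were 435 genes (3.69%), and lower by as much were 483 (4.09%). At a limit of 3-fold the counts were 163 (1.38%) and 188 (1.59%). The lower signal was dim for 229 of these 351 genes (65.2%). With dim signals raised to the median, 65 genes were past 3-fold on the upper side and 98 on the lower. For scale, between the 2 WT pools 57 of 11691 genes (0.488%) were at least 3-fold higher with lubiprostone and 69 (0.59%) at least 3-fold lower.

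By gene list, the comparison had a few lists far from 0 and many near it. Antimicrobial and bacterial sensing genes, the amino acid starvation response, interferon-stimulated genes and cholesterol synthesis genes were higher in treated CF intestine. Cytochromes P450, conjugating enzymes, ileal bile acid genes and brush border hydrolases were lower. Pancreatic enzyme genes were lower too (median -1.87), with both lubiprostone pools below both control pools in 11 of 12. Of the 56 lists with at least 4 genes kept, 43 had a median log2 ratio within 0.5 of 0. In 10 lists no gene was past 2-fold in either direction, among them the oxidative phosphorylation, tight junction, goblet cell and enterocyte lists. Of all genes 92.2% lay within 2-fold, so a short list wholly within it is not set apart by that.

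**Figure D1:**
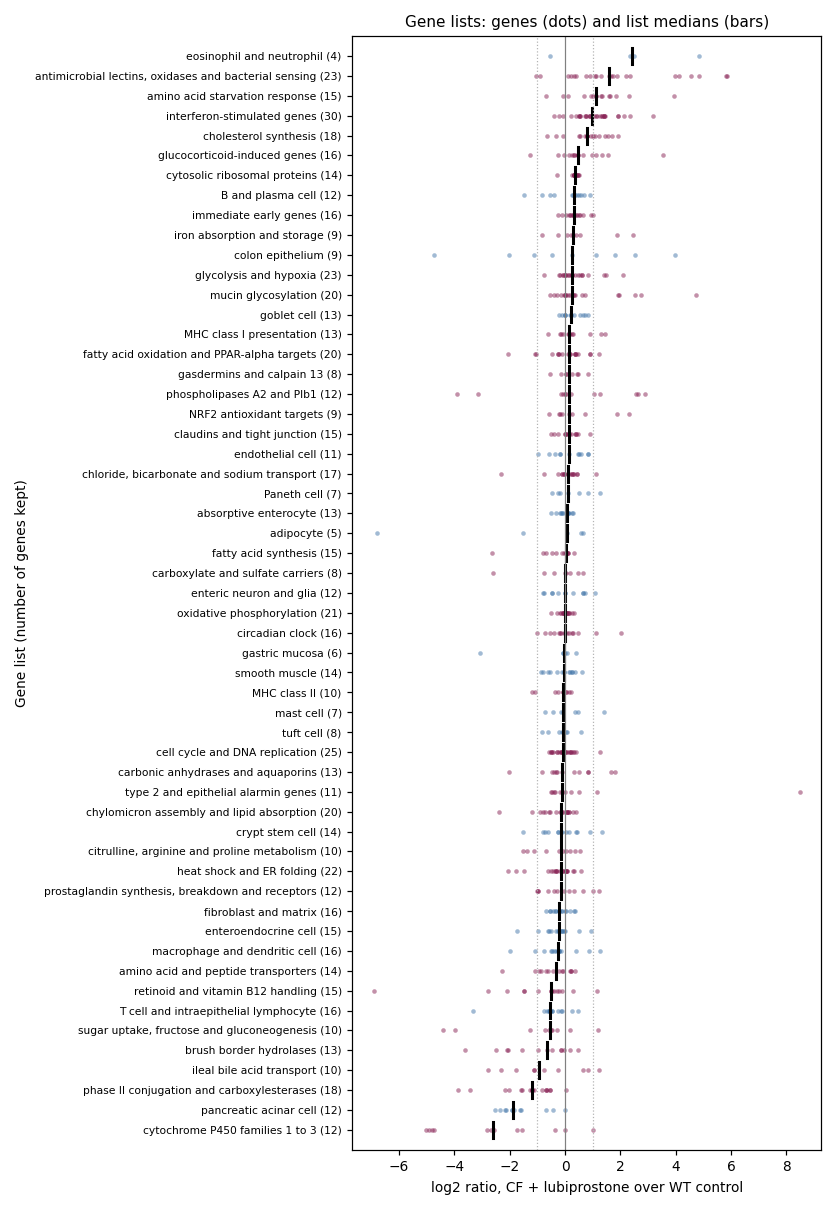
Each row is a gene list with the number of its genes kept. The x axis is the log2 ratio of CF + lubiprostone over WT control, dots are genes (red for processes, blue for cell types), black bars are list medians and dotted lines mark 2-fold. The lowest list median is -2.62 for cytochromes P450. The uppermost row, of 4 eosinophil and neutrophil genes, holds 3 that were dim in WT control and entered through the other array.

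The 15 highest and 15 lowest ratios were taken among genes with a probe set at or above the 75th percentile of an array and all kept probe sets in 1 direction. The highest was Retnlb, which encodes a goblet cell secreted protein of the resistin family, with signals of 8.20, 16.3, 11850.5 and 2938. Its level in CF + lubiprostone was below that of CF control and at least 23.7-fold above WT control. By qRT-PCR the study found no significant decrease of Retnlb in treated CF mice. Lrg1, a secreted glycoprotein of the acute phase, was at 59.1, 123, 2630 and 3399, at least 27.5-fold higher. Lcn2, the lipocalin that binds bacterial siderophores, was at 63.0, 135, 417 and 3514, at least 28.4-fold higher, and CF + lubiprostone was the brightest of the 4 pools. In all 15 genes of the upper end both CF pools were above both WT pools, an order that the choice by ratio fixes in part. The lower signal was dim in 10 of the 15, so their folds are bounds.

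Several of the others encode secreted or signalling proteins of inflammation. The acute phase gene Saa3 was at 139, 145, 767 and 2419, a 17.3-fold difference. Saa1 stood apart in that WT + lubiprostone was also high, with signals of 503, 5702, 7057 and 7985 and a 15.9-fold difference (SD 0.13 on the log2 scale between 2 probe sets). Saa1 and Saa2 are near-identical copies whose probes may read both. Ccl20, the chemokine that draws CCR6-bearing lymphocytes and dendritic cells, was at 210, 390, 574 and 1913, 9.12-fold higher. Socs3, the feedback inhibitor of cytokine signalling through STAT3, was at 1096, 1937, 3924 and 7696, 7.02-fold higher (SD 0.20 between 3 probe sets). Slfn2, a Schlafen family gene of immune cells, was 10.1-fold higher. Fut2, the fucosyltransferase that puts fucose on mucins and enterocyte glycans, was at 19.3, 120, 821 and 510 and at least 4.11-fold higher. The remaining genes of the upper end were Chac1, Cpn2, Tat, Rasd1, Cfhr2 and Pla2g5, with bounds from 2.26-fold for Cfhr2 to 9.26-fold for Rasd1.

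**Figure D2:**
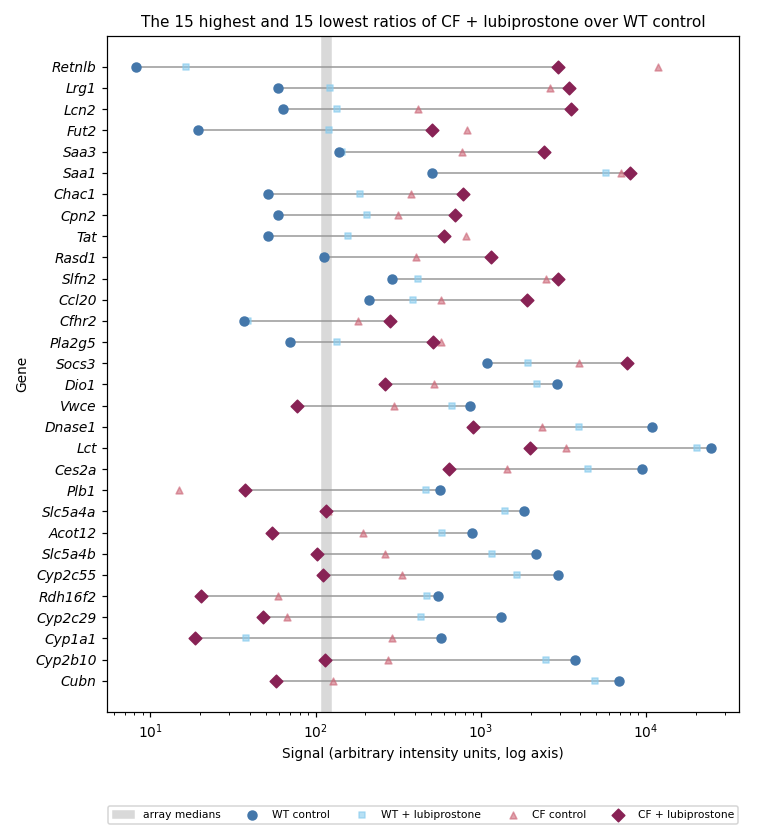
Signals of the 15 highest and 15 lowest genes (rows) on the 4 arrays, on a log axis of intensity. The grey line joins WT control to CF + lubiprostone and the grey band marks the array medians. Both CF pools lie on the same side of both WT pools in 29 of the 30 genes, and the exception is Cyp1a1.

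The lowest ratio was that of Cubn, which encodes the endocytic receptor cubilin that takes up vitamin B12 bound to intrinsic factor in the ileum. Its signals were 6905, 4912, 127 and 57.4, at least 57.7-fold lower in treated CF than in untreated WT. The SD between its 2 probe sets was 1.27 on the log2 scale, and both were lower. Amn, the membrane partner of cubilin, was at 4025, 4041, 1276 and 1435, 2.81-fold lower. Lct, which encodes the lactase of the brush border, was at 24559, 20420.1, 3276 and 1992, 12.3-fold lower from bright signals. The sodium-glucose cotransporter family genes Slc5a4a and Slc5a4b were at least 15.2-fold and 18.0-fold lower, and as near-identical copies they may share probes.

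Other genes of the lower end handle lipids, hormones and nucleic acids. Plb1, a phospholipase B of the brush border, was at 563, 468, 15 and 37.5 and at least 4.71-fold lower, with an SD of 2.0 between 3 probe sets. Acot12, a cytosolic acetyl-CoA hydrolase, was at least 5.31-fold lower, and Dio1, the deiodinase that converts thyroxine, was 10.9-fold lower. Dnase1, a secreted nuclease, was at 10854, 3955, 2360.1 and 901, 12.1-fold lower, and its signal was lower with lubiprostone within each genotype. Vwce was at least 7.23-fold lower, and Rdh16f2 at least 4.63-fold lower. In 14 of the 15 genes of the lower end both CF pools were below both WT pools, which the choice by ratio again fixes in part.

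Genes that clear foreign compounds formed the lowest list. Of 12 cytochrome P450 genes of families 1 to 3, 9 were below WT control by 2-fold or more in the treated CF pool, against 4.09% of all genes. Above it by as much was 1, against 3.69%. The median log2 ratio was -2.62, or -2.42 with dim signals raised to the median. In 5 of the 12 a signal was dim in 1 of the 2 arrays compared. Cyp1a1, Cyp2c29 and Cyp2c55, with 1 probe set each, were dim in CF + lubiprostone and kept through WT control. Their direction was thus fixed by the filter. Cyp3a11, the main drug-metabolizing P450 of mouse gut, was at 27739.5, 33124, 2845 and 4395, 6.31-fold lower. Cyp2c65 was at 13275, 11386, 3078 and 2227, 5.96-fold lower, and Cyp3a25 was 6.97-fold lower. Cyp2b10, the classic target of the receptor CAR, was at 3704, 2473, 274 and 113, at least 28.4-fold lower (SD 0.73 between 3 probe sets). Cyp2c55 was at least 24.7-fold lower and Cyp2c29 at least 11.1-fold lower. These subfamilies hold near-identical copies that probes may not separate. Cyp3a13 did not share the pattern, at 19665 in untreated WT and 19723 in treated CF intestine.

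Cyp1a1 differed from the other P450 genes in the order of the pools. This target of the aryl hydrocarbon receptor was at 571, 38.0, 291 and 18.7, so the signals of both lubiprostone pools were dim and those of both control pools were not. CF + lubiprostone was lower than WT control by at least 4.78-fold.

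Conjugating enzymes and carboxylesterases were lower with few exceptions. Of 18 genes kept, 17 were below WT control, with a median of -1.20. At least 2-fold lower were 11, against 4.09% of all genes, and none was at least 2-fold higher. Both CF pools were below both WT pools in 17 of the 18, against 24.1% of all genes. Ces2a, a carboxylesterase that hydrolyses ester drugs, was at 9431, 4459.5, 1437 and 641, 14.7-fold lower. Ugt2b5, a glucuronosyltransferase, was at 2289.7, 1935, 94.9 and 210.0, 10.9-fold lower. The glutathione transferases Gstm3 and Gsta4 were at 3538 and 6437 in untreated WT intestine and at 797 and 2182 after treatment in CF. CF control was at 2001 and 4039.8 for these 2 genes, above CF + lubiprostone. The bright Gstp1 was at 16569 and 16816 in the 2 arrays compared.

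Among the NRF2 antioxidant targets, 2 of 9 genes were at least 2-fold higher (22.2%, against 3.69% of all genes). None was at least 2-fold lower, and the median was 0.13. Gpx2, the glutathione peroxidase of the gut epithelium, was at 4711, 5605, 31498 and 23622, 5.01-fold higher. Hmox1, heme oxygenase, was at 122, 109, 103 and 452, and CF + lubiprostone was the only pool above 122.

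Genes of digestion and absorption differed by step. Of 13 brush border hydrolases kept, 11 were lower, with a median of -0.64. Both CF pools were below both WT pools in 11, against 24.1% of all genes. At least 2-fold lower were 5 (38.5%, against 4.09% of all genes). Besides Lct, these were the peptidase genes Xpnpep2 (5.62-fold), Naaladl1 (4.25-fold) and Mep1a (4.12-fold, SD 0.03 between probe sets) and Treh, the trehalase (2.91-fold). The peptidases Enpep and Mep1b, the glucosidase Mgam and the alkaline phosphatase Alpi lay within 1.14-fold of WT control. The list was thus uneven, with its 3 brightest members nearly level and lactase far below.

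Of 10 sugar uptake and gluconeogenesis genes, 3 were at least 2-fold lower, against 4.09% of all genes. At least 2-fold higher was 1 (10%, against 3.69%), and the list median was -0.56. Slc5a1, the main sodium-glucose cotransporter of the brush border, was at 23933, 26963, 25233 and 27115. Slc2a5, the fructose transporter, was at 3339.8, 4787, 3189 and 7653, 2.29-fold higher in CF + lubiprostone. Of 14 amino acid and peptide transporters, 2 were at least 2-fold lower (14.3%, against 4.09% of all genes). The lowest was Slc6a20a, a proline carrier, at 8887, 8457, 1212 and 1837. The sodium-driven neutral amino acid carrier Slc6a19 was at 7398, 8881, 2975 and 6877, nearer to WT control than CF control was.

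Of 20 lipid absorption genes, 18 were within 2-fold, where 92.2% of all genes were, and the list median was -0.13. Apoc3, an apolipoprotein that slows the clearance of triglyceride, was at 17186, 12912, 2402 and 3285, 5.23-fold lower. Abcg8, which with Abcg5 returns plant sterols to the lumen, was 2.28-fold lower. The chylomicron gene Mttp and the apolipoprotein gene Apoa1 were within 1.06-fold of WT control.

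Ileal bile acid genes were split. Of 10 genes, 5 were at least 2-fold lower, against 4.09% of all genes. At least 2-fold higher was 1 (10%, against 3.69%), and the list median was -0.93. Fabp6, the bile acid binding protein of ileal enterocytes, was at 20674, 22885, 5532 and 4150.3, 4.98-fold lower. Fgf15, the hormone that ileal enterocytes release in answer to bile acids, was at 369.8, 202, 278 and 54.2, at least 3.09-fold lower. Slc10a2, the sodium-dependent bile acid carrier, was at 807, 602, 332 and 670.2, a log2 ratio of -0.27. Nr1h4, which encodes the bile acid receptor FXR, was at 984, 1057, 1269.8 and 2292, 2.33-fold higher. The receptor and the hormone it drives thus stood on opposite sides of WT control.

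Of 15 retinoid and vitamin B12 genes, 5 were at least 2-fold lower, against 4.09% of all genes. At least 2-fold higher was 1 (6.67%, against 3.69%), and the list median was -0.51. Rdh7, a retinol dehydrogenase, was at 6131, 5347, 396 and 884, 6.94-fold lower. Aldh1a1, which makes retinoic acid, was at 9591, 8645, 1596 and 2252, 4.26-fold lower. Rbp2, the bright retinol binding protein of enterocytes, was within 1.07-fold.

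Fatty acid oxidation and PPAR-alpha target genes had a median near WT control, with members on both sides. Of 20 genes, 16 were within 2-fold, a smaller share than the 92.2% of all genes. At least 2-fold higher was 1 (5%, against 3.69% of all genes) and at least 2-fold lower were 3 (15%, against 4.09%). The median was 0.16, where CF control over WT + lubiprostone had a median of -0.51 for the same list. CF + lubiprostone was the brightest of the 4 pools for 12 of the 20, against 28.4% of all genes. Acot1, an acyl-CoA thioesterase, was at 747, 715, 116 and 1385, and CF + lubiprostone was 1.85-fold above WT control. Acadl, an acyl-CoA dehydrogenase, was at 6533, 7019, 10299.8 and 15445, 2.36-fold higher. Acaa1b, a thiolase of peroxisomes, was at 4161, 2837, 456 and 991, 4.20-fold lower. Ppara itself was 2.14-fold lower.

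Genes of defence at the epithelial surface were mostly higher in treated CF intestine. Of 23 antimicrobial lectins, oxidases and bacterial sensing genes, 15 were higher by 2-fold or more, against 3.69% of all genes. Lower by as much was 1 (4.35%, near the 4.09% of all genes). The list median was 1.58, or 0.87 with dim signals raised to the median. So raised, the amino acid starvation response was at 1.11 and interferon-stimulated genes at 0.91. Both CF pools were above both WT pools in 17 of the 23, against 22.3% of all genes. In 10 of the 23 a signal was dim in 1 of the 2 arrays compared, so that these genes were kept through the other array. Beside Lcn2, Lrg1 and the Saa genes stood Tifa, an adaptor for bacterial sugar sensing, at 2088, 2325, 7767 and 7707, 3.69-fold higher. Duoxa2, the maturation factor of the epithelial peroxide-producing oxidase, was at 135, 165, 662 and 406, 3.0-fold higher. Cd14, the coreceptor for lipopolysaccharide, was at 270.1, 363, 471 and 855, 3.17-fold higher. The bactericidal lectin Reg3g was at 26583, 39910.3, 44772 and 44809.8, a log2 ratio of 0.75, and its neighbour in function Reg3b was at 37303 and 46306. Reg4 was the member at least 2-fold lower, with 5955 in WT control and 2899.9 in CF + lubiprostone.

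Neutrophil genes were higher as well. S100a8 was at 71.9, 51.4, 322 and 362, at least 2.93-fold higher, and S100a9 was at 8.60, 5.14, 226 and 249, at least 2.01-fold higher. Ltf, lactoferrin, was at least 3.58-fold higher. Of 17 eosinophil and neutrophil genes listed, 13 had a probe set of their own and only 4 were kept. S100a8, S100a9 and Ltf were dim in WT control and were kept through the CF + lubiprostone array where they were brighter, so their direction was fixed by the filter. The other gene, Siglecf, of eosinophils, was at 204, 256, 292 and 140.3, a log2 ratio of -0.54. The summed signal of the 4 was 364, 445, 1101 and 1195. The share of such cells in the epithelial gene values was not tested. In pooled bulk RNA, fewer cells of a type and less RNA per cell cannot be told apart.

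Interferon-stimulated genes set treated CF intestine apart from all 3 other pools. Of 30 genes kept, 15 were at least 2-fold higher, against 3.69% of all genes, and none at least 2-fold lower. The list median was 0.99. CF + lubiprostone was the brightest of the 4 pools in 27 of the 30, against 28.4% of all genes. Both CF pools were above both WT pools in 17, against 22.3% of all genes. The summed signal of the list was 34788, 33359, 40322 and 64079. In CF control over WT + lubiprostone the median of the list was 0.28.

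Ifit1, whose protein binds viral RNA that lacks cap methylation, was at 1682, 1983, 2335 and 6286, 3.74-fold higher. Ifit2, from the same family, was at 360.3, 399.9, 488 and 1817, 5.04-fold higher. Rsad2, which encodes the antiviral enzyme viperin, was at 366, 414, 498 and 1609, 4.40-fold higher (SD 0.27 between probe sets). For these 3 genes the other pools lay within a narrow range and CF + lubiprostone lay far above it. Usp18, which removes ISG15 from proteins, was at 827, 790.0, 1501 and 3123, 3.78-fold higher. The oligoadenylate synthetase Oas1a was at 1858, 2010.3, 3740.2 and 5024, 2.70-fold higher, with both CF pools above both WT pools. The GTPase genes Igtp and Irgm1 of cell-autonomous immunity were 2.66-fold and 2.67-fold higher. The chemokine genes Cxcl9 and Cxcl10, which draw CXCR3-bearing T cells, were 2.54-fold and 2.15-fold higher. Ifit3 was at 839, 699, 638 and 797, a log2 ratio of -0.07, unlike its 2 relatives. Ube2l6 and Ifi27l2b were the other genes below WT control, with log2 ratios of -0.22 and -0.42.

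**Figure D3:**
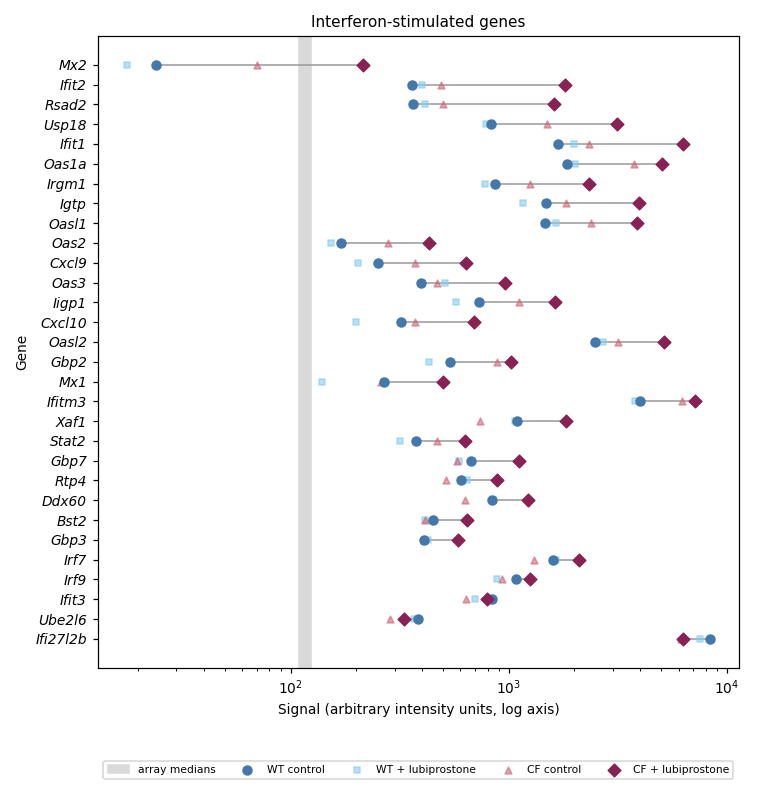
Signals of the 30 interferon-stimulated genes kept, on the 4 arrays, on a log axis of intensity, ordered by the ratio of CF + lubiprostone over WT control. The grey line joins these 2 pools and the grey band marks the array medians. CF + lubiprostone (dark diamonds) is the brightest pool in 27 of the 30 genes.

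The upstream sequences of these genes were searched for the letters of the interferon-stimulated response element, a motif known from promoters of genes that interferons switch on. The letters were TTTCNNTTTC, or GAAANNGAAA on the other strand, within the 250 bases before the start of each gene (RefSeq, GRCm38.p6). A gene was counted when any of its promoters held the letters. They were present in 14 of the 23 listed genes with a sequence (60.9%), against 304 of 9525 kept genes with a sequence (3.19%). Per promoter the share was 978 of all 32851 (2.98%). Among the listed genes past 2-fold they were present in 7 of 11, and among those within 2-fold in 7 of 12. Over the 304 kept genes with the letters, the median log2 ratio was -0.0090. The following windows, 5′ to 3′ on the strand of the gene, show the element in 5 genes at least 2-fold higher and in Ifit3, which was level. Capitals mark the element, and overlapping matches run together.
Ifit1, chr19:34640760-34640838, plus strand: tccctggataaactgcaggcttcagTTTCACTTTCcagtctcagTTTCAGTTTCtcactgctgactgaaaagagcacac
Rsad2, chr12:26456538-26456597, minus strand: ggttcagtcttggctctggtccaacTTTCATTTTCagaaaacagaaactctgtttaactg
Oas1a, chr5:120907526-120907570, minus strand: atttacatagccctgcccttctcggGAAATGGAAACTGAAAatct
Igtp, chr11:58199497-58199555, plus strand: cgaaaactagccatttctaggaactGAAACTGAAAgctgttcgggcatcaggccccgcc
Irgm1, chr11:48871421-48871475, minus strand: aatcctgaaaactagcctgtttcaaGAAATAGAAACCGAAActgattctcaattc
Ifit3, chr19:34583348-34583441, plus strand: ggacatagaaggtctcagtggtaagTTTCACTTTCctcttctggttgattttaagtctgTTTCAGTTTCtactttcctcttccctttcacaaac

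Ifit1 and Ifit3 each held the element 2 times, at 104 and 85 bases before the start in Ifit1 and at 156 and 122 in Ifit3, so the presence of these letters did not separate the gene that was 3.74-fold higher from the one that was level.

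Genes next to the interferon list were less uniform. Of 13 genes of antigen presentation on MHC class I, 2 were at least 2-fold higher (15.4%, against 3.69% of all genes). Tap1, a subunit of the peptide pump, was at 845, 1070.3, 1032 and 2080.4, 2.46-fold higher, and Nlrc5, the activator of the pathway, was at 199, 183, 209 and 539, 2.71-fold higher. The bright B2m, the invariant light chain, was within 1.05-fold. Of 10 MHC class II genes none was at least 2-fold higher and 2 were at least 2-fold lower (20%, against 4.09% of all genes). Their median was -0.06. T cell and intraepithelial lymphocyte genes were lower in 14 of 16, where 49.5% of all genes were higher, with a median of -0.53. At least 2-fold lower was 1 of the 16 (6.25%, against 4.09% of all genes). The summed signal of the T cell list was 12755, 11327, 7523 and 10239.7.

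The amino acid starvation response is the set of genes that the kinase GCN2 and the factor ATF4 switch on when uncharged tRNA accumulates. Of 15 genes kept, 10 were past 2-fold on the upper side in treated CF intestine, against 3.69% of all genes. None was at least 2-fold lower, and the median was 1.14. CF + lubiprostone was the brightest pool in 13 of the 15, against 28.4% of all genes. Both CF pools were above both WT pools in 11, against 22.3% of all genes. Asns, asparagine synthetase, was at 1072, 1331, 3472 and 5349, 4.99-fold higher (SD 0.17). The serine pathway genes Psat1 and Phgdh were 3.55-fold and 2.49-fold higher, and the mitochondrial folate enzyme Mthfd2 was at 286, 399, 652 and 895, 3.12-fold higher. Atf4 was at 3057, 3138, 4178 and 6225, 2.04-fold higher. Chac1, which breaks down glutathione, was at 51.7, 187, 377 and 785, at least 6.34-fold higher. Aldh18a1, of proline synthesis, and Cth, of cysteine synthesis, were the members below WT control, with log2 ratios of -0.69 and -0.06.

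The core letters of the amino acid response element, TGATGNAA or TTNCATCA on the other strand, were searched for after these values were seen. They were found upstream of 2 of the 14 listed genes with a sequence, against 2.45% of kept genes and 3.45% of all promoters. These 2 were Asns and Chac1, also the genes with the highest ratios of the list. Both windows are shown with the core in capitals.
Asns, chr6:7693210-7693257, minus strand: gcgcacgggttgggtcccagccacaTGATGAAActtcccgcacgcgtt
Chac1, chr2:119351024-119351081, plus strand: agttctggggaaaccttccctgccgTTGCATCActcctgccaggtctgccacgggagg

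The neighbouring stress lists did not share this direction. Of 22 heat shock and endoplasmic reticulum folding genes, none was at least 2-fold higher. At least 2-fold lower were 3 (13.6%, against 4.09% of all genes), and the list median was -0.15. Hsph1, a heat shock protein of the cytosol, was at 1465, 427, 1806 and 352, 4.16-fold lower, and Hspa1b was at 1671, 379, 2404 and 487, 3.43-fold lower. Hspa1a, a near-identical copy of Hspa1b, was 2.80-fold lower. For all 3, both lubiprostone pools were below both control pools, as for 11 of the 22 genes of the list and 16% of all genes. Ddit3, which the unfolded protein response switches on, had a log2 ratio of -0.28, and Xbp1 had one of 0.58.

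Glucocorticoid-induced genes were higher in 13 of 16, with 4 at least 2-fold higher, 1 at least 2-fold lower and a median of 0.46. Fkbp5, a chaperone of the glucocorticoid receptor, was at 810.2, 647, 878 and 2380.2, 2.94-fold higher. Zbtb16, a transcription factor, was at 251, 216, 30.9 and 497, so that CF + lubiprostone and CF control lay on opposite sides of WT control. Tat, tyrosine aminotransferase, was at 51.5, 156, 815 and 595, at least 4.80-fold higher. Nfkbia, which encodes the inhibitor of NF-kappa B and is also an NF-kappa B target, was 2.56-fold higher. CF + lubiprostone was the brightest of the 4 pools in 12 of the 16 genes, against 28.4% of all genes. In CF control over WT + lubiprostone the median of the list was -0.24. Immediate early genes were higher in 14 of 16, against 49.5% of all genes, by small amounts. Their median was 0.31 and 1 of them was past 2-fold, Ier3 (6.25%, near the 3.69% of all genes).

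Cholesterol synthesis genes were higher in treated CF intestine, as they were in CF control. Of 18 genes, 7 were at least 2-fold higher, against 3.69% of all genes, and none at least 2-fold lower. The list median was 0.81. Both CF pools were above both WT pools in 15, against 22.3% of all genes. Sqle, squalene epoxidase, was at 768, 1169.6, 3911 and 2892, 3.76-fold higher. Fdft1, squalene synthase, was at 854, 1114, 3146 and 2756, 3.23-fold higher (SD 0.10). Hmgcs1, the synthase at the entry of the pathway, was at 4614, 5239, 10473 and 9249.6, 2.0-fold higher (SD 0.25). Srebf2, which encodes the factor that drives these genes, had a log2 ratio of 0.50. The sterol regulatory element TCACNCCAC, or GTGGNGTGA on the other strand, was present upstream of 1 of the 14 listed genes with a sequence, Hmgcs1. It was present in 1.21% of kept genes and 1.05% of all promoters. It is shown in capitals, as the clearest promoter match of the list.
Hmgcs1, chr13:119690189-119690247, plus strand: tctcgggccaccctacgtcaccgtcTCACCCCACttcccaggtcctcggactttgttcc

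Fatty acid synthesis genes did not go with cholesterol synthesis. Of 15 genes, 14 were within 2-fold, where 92.2% of all genes were, with a list median of 0.02. Scd1, the desaturase that makes oleic acid, was at 880.2, 261, 313 and 143, 6.15-fold lower, and it was also lower in WT + lubiprostone and CF control than in WT control. Other promoter motifs were searched in the same way. The direct repeat to which PPAR binds was in none of 17 genes of fatty acid oxidation (0.042% of kept genes, 0.0335% of all promoters). The E-box CACGTG was in 4 of 14 clock genes (9.78% of kept genes, 6.02% of all promoters). The TATA box TATAAA was in 6 of 12 P450 genes (8.59% of kept genes, 12.4% of all promoters). None of the motifs searched contains another, and each was read on both strands.

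Mucin glycosylation genes were higher in part. Of 20 genes, 5 were at least 2-fold higher, against 3.69% of all genes, and none at least 2-fold lower. These 5 were Fut2, Chst4, B3galt5, Gcnt3 and B3gnt7. The list median was 0.24. Chst4, a sulfotransferase of mucin glycans, was at 434, 682, 3479 and 2915, 6.72-fold higher. Gcnt3, which makes branched mucin cores, was at 668, 895, 2199.9 and 2606, 3.90-fold higher (SD 0.25). B3gnt7 was at 581, 855, 2165 and 2214, 3.81-fold higher. The goblet cell list was within 2-fold in all 13 genes, as were 92.2% of all genes, with a median of 0.20. Muc2, the secreted gel-forming mucin, was at 16545, 17206, 22836 and 19013.

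Ion and water transport genes had medians near WT control, with single genes far from it. Of 17 chloride, bicarbonate and sodium transport genes, 15 were within 2-fold, where 92.2% of all genes were, and the median was 0.10. The exceptions were Cftr and Slc9a3, the sodium-proton exchanger NHE3, which was at 3672, 3586, 9237 and 8049, 2.19-fold higher. Of 13 carbonic anhydrase and aquaporin genes, 10 were within 2-fold, with a median of -0.09. As measured, 2 were at least 2-fold higher (15.4%, against 3.69% of all genes) and 1 at least 2-fold lower (7.69%, against 4.09%). Slc26a3 and Slc26a6, the chloride-bicarbonate exchangers of the brush border, had log2 ratios of 0.27 and 0.44. Car4, the membrane-bound carbonic anhydrase, was at 1753, 2736, 9621 and 6095, 3.48-fold higher (SD 0.26). Aqp3, a water and glycerol channel, was at least 2.35-fold lower. Of 12 prostaglandin genes, 2 were higher by 2-fold or more (16.7%, against 3.69% of all genes). Lower by as much was 1 (8.33%, against 4.09%), and all 3 were against dim signals. Hpgd, which breaks down prostaglandins, was at 2140.3, 1862, 549 and 1085, 1.97-fold lower (SD 0.01).

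The genes that the study listed as high in CF and lower with treatment, or low in CF and higher with treatment, were set against WT control. The study chose them on these arrays, so their place is no independent evidence. Those with a probe set of their own in the annotation used here were taken, which does not cover the whole of the study's lists. Of 13 such genes of the first kind, 11 were kept. Of these, 7 were within 2-fold of WT control after treatment and 4 were at least 2-fold higher. Gsdmc2, a gasdermin of the intestinal epithelium, was at 875, 194, 16915 and 1219.8, 1.39-fold above WT control. Mcpt2, a protease of mucosal mast cells, was at 231, 140.4, 3270.4 and 297, 1.29-fold above. Capn13, a calpain, was at 201, 220.4, 1737 and 204, 1.02-fold above.

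The 4 genes above WT control were Retnlb, Pla2g4c, B3galt5 and Mcpt1. Pla2g4c, a cytosolic phospholipase A2, was at 293, 108, 12086 and 1833, 6.26-fold above (SD 0.94 between probe sets). The study reports that by qRT-PCR on several samples per group Pla2g4c, like Gsdmc2 and Mcpt2, fell to WT control levels with treatment. For Pla2g4c the array value and that report thus differ. B3galt5, a galactosyltransferase, was at 125, 204, 1412 and 727, at least 4.83-fold above (SD 1.41). Mcpt1, the other mucosal mast cell protease, was at 143, 74.2, 5798 and 376, 2.64-fold above. Ube2l6 was at 385, 369.6, 285 and 330.5 on the 1 probe set kept here, where CF control was below WT control although the gene stands in that list. The study averaged the probe sets of a gene where it had several. Which of them its value for Ube2l6 rests on was not examined. Chil4 and Fcer1a were dim in both arrays compared and were not kept.

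Of 8 such genes of the second kind, 6 were within 2-fold of WT control after treatment and 2 were lower. Slc5a12, the sodium-lactate cotransporter, was at 1676, 746, 35.3 and 276, 6.07-fold below WT control (SD 0.0066). Pck1, the gluconeogenic carboxykinase, was at 1936, 1494, 253 and 808, 2.40-fold below (SD 0.02). Sgk1, the kinase that glucocorticoids and aldosterone switch on, was at 8162, 8529, 1994 and 10327, 1.27-fold above. Angptl4, a secreted inhibitor of lipoprotein lipase, was at 906, 777, 274 and 1707, 1.88-fold above. Pdk4, which shuts pyruvate out of oxidation, was at 1460.5, 900.3, 198 and 1655, 1.13-fold above.

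**Figure D4:**
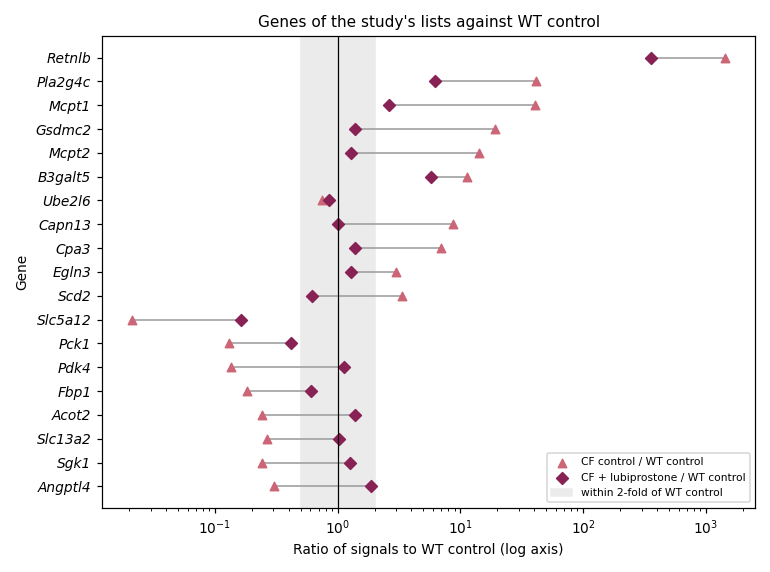
Ratio of signals to WT control, on a log axis, for the 19 kept genes of the study's 2 lists: CF control (triangles) and CF + lubiprostone (diamonds), joined by a line. The grey band marks 2-fold on either side of WT control, and 13 of the 19 diamonds lie in it. Both ratios share the WT control array.

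The pair CF control over WT + lubiprostone has the same genotypes, the treatment on the other side and no array in common with the comparison above. In it, 373 of 11818 genes were higher by 2-fold or more (3.16%) and 563 lower by as much (4.76%), and 146 (1.24%) and 218 (1.84%) passed 3-fold. Of the 163 genes past 3-fold on the upper side in treated CF against untreated WT, 35 (21.5%) were also at least 3-fold higher in that pair, which is 24.0% of its 146. For genes at least 3-fold lower the number shared was 63, or 33.5% of 188 and 28.9% of 218. Across the 11359 genes kept in both pairs, Pearson's r was 0.39 and Spearman's rho 0.26. Across 7153 brighter genes they were 0.50 and 0.33. Genes are not independent replicates, so no p-value is given.

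Of the 15 highest genes, 12 were at least 2-fold higher in that pair too and none was at least 2-fold lower. Of the 15 lowest, 13 were at least 2-fold lower in it and 1, Cyp1a1, at least 2-fold higher. Lists with the same direction in both pairs included conjugating enzymes (medians -1.20 and -1.22), P450 genes (-2.62 and -1.75), cholesterol synthesis (0.81 and 0.97) and T cell genes (-0.53 and -0.52). The antimicrobial list had medians of 1.58 and 0.68, and the amino acid starvation response 1.14 and 0.42. For these lists the medians lay on the same side of 0 whichever genotype was treated.

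**Figure D5:**
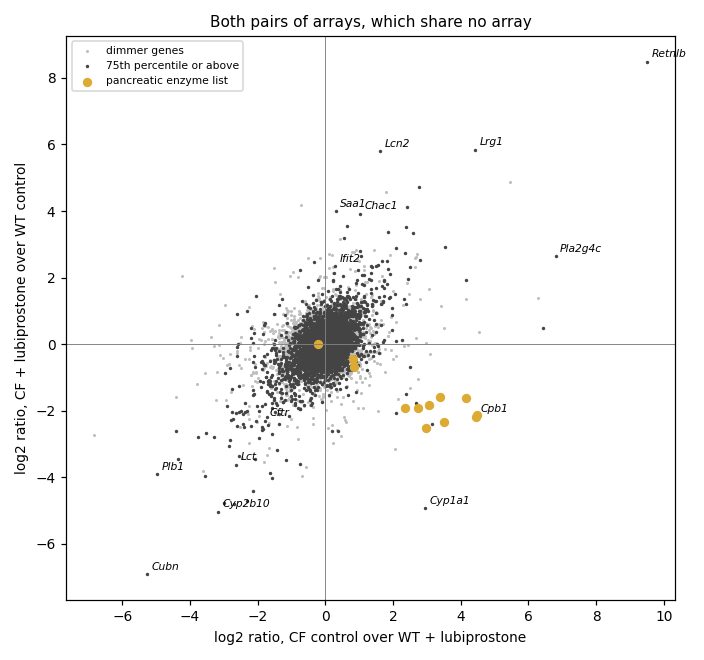
Log2 ratio of CF + lubiprostone over WT control (y axis) against CF control over WT + lubiprostone (x axis) for 11359 genes kept in both pairs, which share no array. Black dots are genes at or above the 75th percentile, grey dots dimmer genes and yellow dots the pancreatic enzyme list. Most labelled genes lie in the upper right or lower left, and Cyp1a1 and most pancreatic genes lie in the lower right.

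Pancreatic enzyme genes were the main group on opposite sides in the 2 pairs. Of 12 genes, 9 were below WT control by at least 2-fold in the treated CF pool, against 4.09% of all genes. The list median was -1.87, and in the other pair it was 3.02. Cela2a, an elastase, was at 4980.5, 478, 3747 and 859.9, and Cpa1, a carboxypeptidase, was at 3422, 157, 3528 and 789.8. Both lubiprostone pools were below both control pools in 11 of the 12 genes, against 16% of all genes, and the exception was Zg16, which goblet cells also express. Summed over the list, the signals were 74167, 47086, 75665 and 48591. Zg16 alone was at 35488, 38126, 32565 and 35607. It thus made up most of the sum in both lubiprostone pools, and the sums understate the difference in the other genes. How much pancreas each pool held, and its part in other differences, was not tested. Without the listed pancreatic genes, 474 genes in place of 483 were at least 2-fold lower and 180 in place of 188 at least 3-fold lower.

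The eosinophil and neutrophil list, with a median of 2.41, was farther from 0, but 3 of its 4 genes were kept through CF + lubiprostone. The remaining cell type lists had medians nearer to 0, with members on both sides in some. Of 9 genes of colon epithelium, 4 were at least 2-fold higher, among them Saa1 and Car4, against 3.69% of all genes. At least 2-fold lower were 3, among them Cyp2c55, against 4.09% of all genes. Of 5 adipocyte genes, 2 were past 2-fold on the lower side as measured, against the same 4.09%. Lpl was at 623, 349, 559 and 215, which is 2.90-fold lower. Adipoq was at 173, 15.3, 99.5 and 1.56, and since the last is dim its difference is bounded only at 1.45-fold or more. The mast cell list had a median of -0.08 with 7 of 14 genes kept, and its summed signal was 1514, 1290.0, 10807 and 1649, so the high value of CF control was not seen in CF + lubiprostone. Of 11 type 2 and epithelial alarmin genes, 2 were at least 2-fold higher, Retnlb and Il4ra, against 3.69% of all genes. Their list median was -0.11. Il33, an epithelial alarmin, was at 1814, 1497, 3981 and 1418. Fibroblast and matrix genes had a median of -0.20, smooth muscle genes of -0.05 and enteroendocrine genes of -0.21, in which Nts, neurotensin, was at 2981, 1590.1, 1487 and 900.3, 3.31-fold lower. Of 12 B and plasma cell genes, 8 were higher and 4 lower, with a median of 0.32. None was at least 2-fold higher and 1 was at least 2-fold lower (8.33%, against 4.09% of all genes). The plasma cell genes Igha and Jchain, the 2 brightest, were at 28882, 31852, 36518 and 38732 and at 20562, 20844, 24431 and 29467. Among proliferation genes, 24 of 25 were within 2-fold, where 92.2% of all genes were. Rrm2, a subunit of ribonucleotide reductase, was 2.38-fold higher. Crypt stem cell genes had a median of -0.13, with Olfm4 at 15232, 14618, 16051 and 8712 and Lgr5 at 567, 582, 329 and 347.

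The sexes in each pool are not given in the sources used here. Xist, expressed from the inactive X chromosome of females, was at 308, 976, 679.8 and 1012 (SD 0.35 between 3 probe sets), and the Y-linked Eif2s3y at 1242, 829, 884 and 805. WT control was thus lowest for Xist and highest for Eif2s3y. Leaving out genes on X and Y gave 425 and 462 genes past 2-fold, and the part of sex in genes on other chromosomes was not tested.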

How the data were processed

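Total RNA of the small intestine was extracted by the authors with Trizol, pooled in equal amounts within each group and hybridized to Mouse 430 2.0 arrays. The deposited values are linear intensity signals made by the authors with GCOS (MAS5), and the mean of each of the 4 arrays, trimmed by 2% at either end, was near a scaling target of 500. No detection calls and no genome build are given in the files. The design text counts 10 mice in the WT control pool, and the methods of the study give 8.

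Of 45101 probe sets, 34958 had 1 symbol, 932 had several and 9211 were not named by the annotation used. Those with several symbols or none were left out. Symbols were updated by gene identifier for 34754. A probe set was kept at or above the 50th percentile of WT control or CF + lubiprostone, which left 20730. Log2 ratios were averaged over the probe sets of a gene. Python 3.11, numpy 2.4.6, pandas 2.3.3, scipy 1.17.1 and matplotlib 3.10.9 were used, and the steps were tested on simulated data.

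Named genes are the 15 highest and 15 lowest ratios at or above the 75th percentile, the study's genes, the 3 brightest members and 2 largest ratios of each list, and Cftr, Clcn2, Ptger4 and sex-linked genes. Others were chosen as members of a count or after their values were seen. The members and the 57 lists were chosen with earlier results of these data known. Upstream sequences are RefSeq's. Of the alternatives tried, 9 were planned, and leaving out pancreatic genes was added after seeing the data.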

Additional observations from a re-analysis of the deposited data

Results flagged for a closer look

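Probe sets outside the gene counts passed 3-fold between treated CF and untreated WT intestine at shares close to those of named genes, which were 1.38% on the upper and 1.59% on the lower side. Of 584 kept probe sets that carry several gene symbols, 9 were higher by 3-fold or more in CF + lubiprostone and 10 lower by as much (1.54% and 1.71%). Of 2885 kept probe sets that the annotation does not name, 39 were higher by 3-fold or more and 52 lower by as much (1.35% and 1.80%). They were picked out because no comparison of genes used them, and there is no replicate to set them against.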

How the results depend on the processing

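Each difference rests on 1 array against 1 array, so neither the spread between mice nor that between pools is known, and dim signals limit many folds to bounds. No paired analysis was possible because each group has 1 array. Beside the counts, the alternatives were followed for list medians and for the genes named by rule. Among these medians and genes, no value past 2-fold turned its direction. Genes named for other reasons, and other genes past 2-fold, were not followed singly. Smaller values did: 15 list medians and 33 single genes changed sign under at least 1 alternative, from reported log2 values of at most 0.47 and 0.56 in size. In all, 22 of 38 counts, 372 of 385 list medians and 1781 of 1861 single gene values stayed within the limits set. The counts depended most on the handling of dim signals. Without a filter, 1739 genes were at least 2-fold higher and 1918 lower, 882 and 977 passed 3-fold, and r with the pair that shares no array was 0.10. With a filter at the 75th percentile the counts were 199 and 220, and 66 and 97 at 3-fold. Raising dim signals to the median gave 229 and 275, and 65 and 98. Counted as probe sets they were 752 and 899, and 263 and 314. Scaling to the same median moved the median of all genes to 0.05. Without a filter, list medians moved to -2.08 for P450 genes, -0.19 for Paneth cells, 0.38 for mast cells, 1.17 for eosinophil and neutrophil genes and 0.088 for sex-linked genes. At the 75th percentile they moved to -0.13 for NRF2 targets, -0.52 for ileal bile acid genes, 0.54 for phospholipases, 0.94 for the antimicrobial list and 0.78 for colon genes. The colon list was at 0.74 by the brightest probe set. With such raised signals, the antimicrobial list was at 0.87 and eosinophil and neutrophil genes at 1.28. The filters change which genes enter, and for the other settings the cause was not tested.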

Other observations

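Grouped by the start of their symbols, some families with at least 8 genes kept stood far from the median of all genes. Of all genes, 4.09% were at least 2-fold lower and 3.69% at least 2-fold higher. Large shares past 2-fold also occurred in symbols that start with Pla and Prss. In Pla, 6 of 15 genes were at least 2-fold higher and 1 lower by as much, and in Prss 3 of 12 and 2. Of 10 carboxylesterase genes (Ces), 7 were at least 2-fold lower in treated CF than in untreated WT intestine and none at least 2-fold higher, with a median log2 ratio of -1.21. Of 31 genes whose symbols start with Cyp, 18 were at least 2-fold lower and 2 at least 2-fold higher, with a median of -1.15. Of 14 hydroxysteroid dehydrogenase genes (Hsd), 5 were at least 2-fold lower and 1 at least 2-fold higher, with a median of -0.44. On the upper side, 5 of 11 CXC chemokine genes (Cxcl) were at least 2-fold higher and none at least 2-fold lower, with a median of 0.89. Of 10 immunoglobulin kappa variable genes (Igkv), 2 were at least 2-fold higher, with a median of 0.82, and their probes may read several members.

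Cytosolic ribosomal protein genes were higher in 13 of 14, against 49.5% of all genes, none past 2-fold, with a median log2 ratio of 0.35 and both CF pools above both WT pools in 13. In CF control over WT + lubiprostone their median was 0.19. Hk2, a hexokinase that hypoxia-inducible factor can switch on, was at 829, 978, 3710.2 and 3569.5 in untreated WT, treated WT, untreated CF and treated CF intestine, 4.31-fold higher in the last than in the first.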
